A study of Mus musculus with 39 samples.

Results

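Mir296, Mir298, Mir335, Mir483 and Mir675 are 5 imprinted mouse microRNA (miRNA) genes that lie outside the large Dlk1-Dio3 miRNA region. Their 10 mature arms, the 5p and the 3p strand of each hairpin, were taken by name, on the sense strand, from 1684 features counted in small RNA libraries of the mouse heart. The study profiled 39 libraries, 16 from female and 23 from male mice of the inbred strain FVB/NJ, all wild type. There were 6 female libraries of 6 weeks of age, 3 of 7, 2 of 8 and 5 of 9 weeks. Of the male libraries, 2 were of 4 weeks, 3 of 5, 12 of 6, 1 of 7, 4 of 8 and 1 of 16 weeks. No treatment is given in the labels, so sex and age are what the comparisons rest on. By the protocol in the labels the RNA came from the apex of the ventricles, while the tissue tag reads whole heart. Nothing in the labels says whether a library was 1 animal or a pool, and p-values measure only the spread between these libraries.

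An imprinted gene is read mainly from the copy inherited from 1 parent. Mir335 sits in Mest, a gene read from the paternal copy; Mir483 in Igf2, which encodes a growth factor of fetal life; and Mir675 in H19, a non-coding RNA that is abundant before birth and is read from the maternal copy. Mir296 and Mir298 belong to the Gnas region, where they are read from the paternal copy. A miRNA is cut from its hairpin as a short duplex, 1 strand of which is usually kept and guides silencing of mRNAs that pair with its seed, bases 2 to 8. Parent of origin cannot be read from a single inbred strain, so all values below are totals over both copies.

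The mature sequences of all 10 arms are shown because no 2 of them share a seed, so they form no family by target pairing. They are RefSeq sequences on GRCm38.p6, 5′ to 3′, with the seed in capitals.
miR-335-5p: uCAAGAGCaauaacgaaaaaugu
miR-335-3p: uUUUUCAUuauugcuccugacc
miR-298-5p: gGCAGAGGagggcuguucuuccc
miR-298-3p: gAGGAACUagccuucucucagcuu
miR-296-5p: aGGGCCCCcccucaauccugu
miR-296-3p: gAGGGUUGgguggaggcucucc
miR-483-5p: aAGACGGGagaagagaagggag
miR-483-3p: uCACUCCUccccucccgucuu
miR-675-5p: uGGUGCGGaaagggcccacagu
miR-675-3p: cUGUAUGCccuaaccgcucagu
None of the other mature sequences in the RefSeq table had any of these 10 seeds. The arms of Mir335 had the lowest GC content, 30.4% (5p) and 36.4% (3p), against 50% to 68.2% in the other arms.

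The Mir335 hairpin is shown because its arms had near-equal pooled counts, unlike those of the other member hairpins. Both arms are in capitals and the 17 bases between them are part of the loop.
Mir335: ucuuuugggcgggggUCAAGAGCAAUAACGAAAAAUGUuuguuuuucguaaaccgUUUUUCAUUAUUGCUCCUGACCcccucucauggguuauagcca
On GRCm38 this hairpin lies at chr6:30741299-30741396, on the plus strand in an intron of Mest. Mir483 lies at chr7:142654924-142654996 in an intron of Igf2, an interval also covered by an intron of the overlapping gene model Gm49394. Mir675 lies 77776 bases from it, at chr7:142577064-142577147 in an exon of H19, and both are on the minus strand. Mir296 (chr2:174267047-174267125) and Mir298 (chr2:174267504-174267585) are separated by 378 bases on the minus strand. Neither overlaps another annotated gene; the nearest of the region's long RNAs checked, Nespas, starts and ends at chr2:174281237-174295436.

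Libraries held 1788245 to 14563754 counts in miRNA features, with a median of 8410768. A count of 0 therefore allows a level of up to 0.206 to 1.68 CPM (counts per M counts of the library), which covers counting error only. All 12 arms of a list of heart muscle miRNAs were above 0, and they held 5.58% to 16.1% of counts. Over 105 pairs of libraries from the same group, counts differed by at least 31.1 (chi-square divided by its degrees of freedom), far beyond sampling noise. A single arm held more than 40% of the counts of 4 libraries (6-week male replicates 2 and 6, 6-week female replicate 1 and 7-week female replicate 2), and 8-week female replicate 2 had the fewest counts. The libraries also fell into 7 sets, made after earlier results of these data were known, by how counts were divided between 8 pairs of loci that give identical miRNAs. The labels give no batch. Set 1 held all males of 4 and 5 weeks with 6-week female replicate 2, set 2 held 5 males of 6 weeks, set 6 held all females of 9 weeks, and set 7 held 3 males of 8 weeks, the male of 16 weeks and 8-week female replicate 2. Sets 3 and 4 held both sexes at 6 weeks. Differences in library preparation between sets and differences between their animals cannot be told apart.

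Mir335 was the only one of the 5 genes at a substantial level in these hearts. Pooled over the 39 libraries, miR-335-5p stood at 171 CPM (54896 counts) and miR-335-3p at 170 CPM (54320 counts), ranks 112 and 114 of 1499 sense arms by mean level. miR-298-5p followed at 9.45 CPM (3029 counts, rank 263), miR-296-5p at 4.34 CPM (1389 counts, rank 313) and miR-483-3p at 1.98 CPM (634 counts, rank 364). These 5 arms were above 0 in all 39 libraries. Ligation and amplification favour some sequences, so the order of different miRNAs within a library is an order of counts and not of molecules.

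The other 5 arms were near or below the counting limit. miR-483-5p had 173 counts in all (0.540 CPM, above 0 in 36 libraries) and miR-296-3p had 67 (0.209 CPM, 30 libraries). miR-675-3p had 55 counts (0.172 CPM) in 22 libraries, with the highest, 11 counts or 0.977 CPM, in 6-week female replicate 5. miR-298-3p had 6 counts in 4 libraries. miR-675-5p had 3 counts in 2 libraries, both male; this arm was listed only in the files of the 23 male libraries and was taken as 0 in the females. No library with counts of a miR-675 arm reached 1 CPM, and in the library of fewest counts a level of up to 1.68 CPM would not have been detectable.

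**Figure D1:**
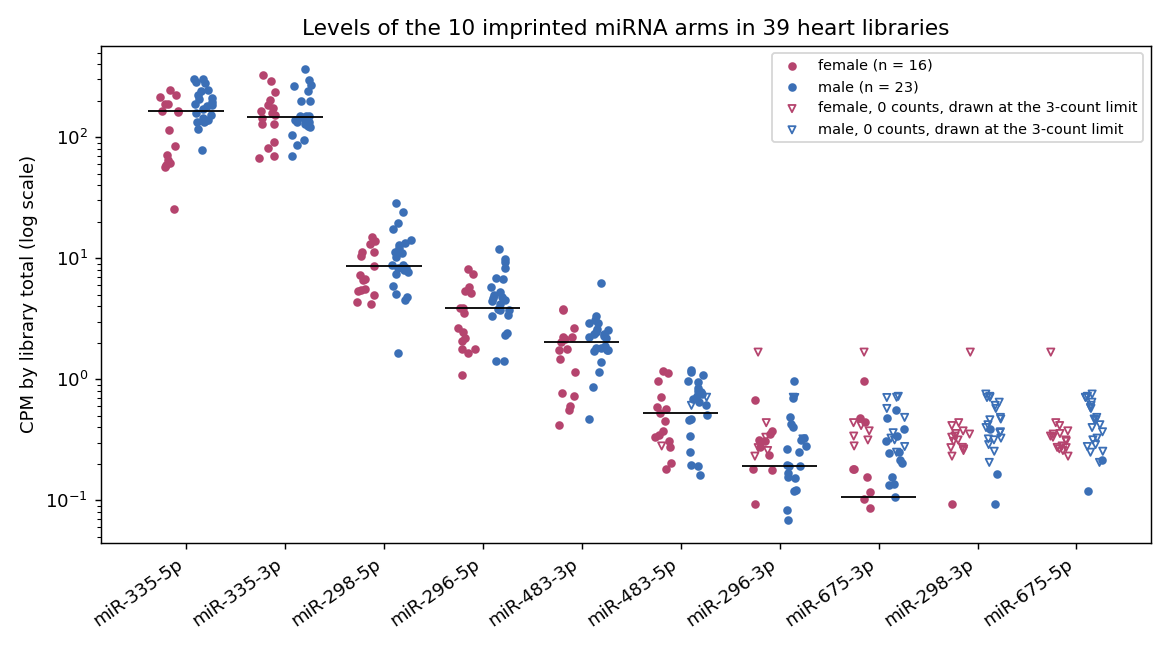
Level of each of the 10 arms in every library, in CPM on a log axis, with females left of males for each arm; black lines are medians over 39 libraries where above 0, and open triangles are libraries with 0 counts drawn at the 3-count limit. The Mir335 arms lie far above the rest, and the lowest 2 arms are nearly all triangles.

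The hairpins differed in how counts were divided between their arms. These are shares of counts and not of molecules. The 5p arm held 95.4% of the arm counts of Mir296 (95% Wilson interval 94.2 to 96.4%) and 99.8% of those of Mir298 (99.6 to 99.9%). Mir483 and Mir675 were on the other side, with 78.6% and 94.8% of counts on the 3p arm; for Mir675 the 5p share of 5.17% had an interval of 1.77 to 14.1%. Mir335 was balanced at 50.3% 5p (49.97 to 50.6%). Among 54 hairpins with both arms at a median of 20 CPM or more, 6, Mir335 among them, averaged between 40 and 60% 5p. Reads antisense to Mir335 were few, at 0.444% of the sense counts of the 5p arm and 0.0221% of those of the 3p arm.

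The balance of Mir335 was an average over libraries that were far from equal. The 5p share ran from 26.9% to 74.3% over the 39 libraries, with a mean of 49.5% ± 12.2 (SD), and was above 50% in 19. The levels of the arms were only weakly alike across libraries (Spearman rho 0.13 over 39 libraries that share library sets). By the spread of the log2 ratio of the arms, Mir335 ranked 12 of the 54 hairpins, with an SD of 0.74 against a median of 0.50.

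Libraries of a set were close to each other in this share. It averaged 42.1% ± 5.11 (SD, n = 6) in set 1, 60.9% ± 4.38 (n = 5) in set 2, 41.6% ± 3.53 (n = 6) in set 3, 59.7% ± 3.67 (n = 8) in set 4, 51.4% ± 5.02 (n = 4) in set 5, 33.7% ± 4.60 (n = 5) in set 6 and 54.0% ± 20.2 (n = 5) in set 7. All 6 libraries of set 3 lay below 50% and all 8 of set 4 above it, though both held females and males of 6 weeks. Set 7 was the exception, with 3 males of 8 weeks between 61.5% and 74.3% and 8-week female replicate 2 at 26.9%. The sets took up 62.1% of the variance of the share and the 10 sex and age groups 55.0%. The other hairpins did likewise: of the variance of the log2 ratio, sets took up 60.7% for Mir335, rank 33 of 54, against a median of 66.7%. Some of the 54, such as Mir30c-1 (92.5%), hold loci from which the sets were made. The median is therefore not independent of how the sets were made.

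**Figure D2:**
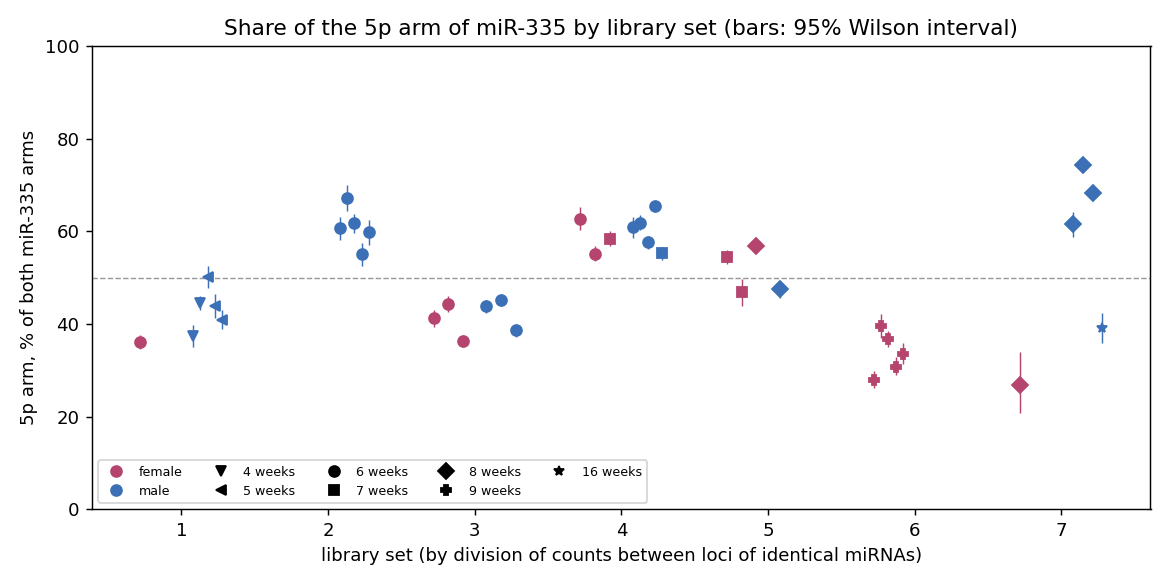
Share of the 5p arm in the counts of both miR-335 arms for every library, by library set, with females left of males in each set; marker shapes are ages and bars are 95% Wilson intervals. Sets 3 and 4 lie on opposite sides of 50% for both sexes.

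At 6 weeks the 5p share of miR-335 was 36.2%, 42.7% and 62.7% (lowest, median, highest) in females, against 38.6%, 60.2% and 67.2% in males. The ranges overlapped. The mean was 46.0% ± 10.8 (SD, n = 6) in females and 56.5% ± 9.10 (n = 12) in males, a difference of -10.5 points (two-sided exact permutation test, p = 0.0473, 18564 regroupings). Within set 3 the difference was -1.94 points (exact permutation p = 0.60, 20 regroupings) and within set 4 it was -2.49 points (p = 0.533, 15 regroupings). With so few regroupings neither p could fall under 0.05. Both differences kept their direction but were smaller than that over all libraries of 6 weeks. With sexes regrouped within both sets the difference was -2.22 points (exact permutation p = 0.313). The p rose above 0.05, to at most 0.114, when any of 13 of the 18 libraries was left out (all but female replicates 1 and 6 and male replicates 8, 9 and 10).

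Males of 8 weeks had 5p shares of 47.5%, 61.5%, 68.3% and 74.3%. Males of 4 weeks had 37.4% and 44.5%, and males of 5 weeks 50.1%, 40.9% and 43.8%. Of the older males, 1 lay within the range of the younger and 3 above it. The mean was 62.9% ± 11.5 (SD, n = 4) at 8 weeks and 43.3% ± 4.68 (n = 5) at 4 and 5 weeks, a difference of 19.6 points (two-sided exact permutation test, p = 0.0317, 126 regroupings). Leaving out any of 7 of the 9 libraries (all but 8-week replicate 1 and 5-week replicate 1) gave an exact permutation p of 0.0571 to 0.0714, with 15.8 to 20.04 points. No set held males of both ages, so age and library set cannot be told apart. The male of 16 weeks had 39.1%, in the range of the youngest males.

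Sex differences in the levels themselves lay within overlapping ranges. miR-335-5p stood at 114, 165 and 189 CPM (lowest, median, highest) in females of 6 weeks, against 134, 192 and 288 CPM in males of 6 weeks. miR-335-3p stood at 67.9, 218 and 329 CPM in females, against 70.4, 138 and 369 CPM in males. The sexes overlapped for both arms, although the highest males lay above every female for miR-335-5p. The female minus male difference was -0.25 ± 0.11 (log2 ± SE) for miR-335-5p and 0.38 ± 0.30 for miR-335-3p, with adjusted p of 0.478 and 0.509 by edgeR's quasi-likelihood test with Benjamini-Hochberg adjustment. With a term for library set the estimate for miR-335-3p was -0.17 ± 0.12, on the other side of 0. That for miR-335-5p was -0.34 ± 0.12 (edgeR, unadjusted p = 0.0141, adjusted p = 0.266). The tests covered features that reached 5 CPM in 5 or more of the fitted libraries, and a call is an adjusted p under 0.05.

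miR-298-5p had 5.00, 12.2 and 15.1 CPM in females of 6 weeks, against 4.79, 9.48 and 14.2 CPM in males, and differed by 0.27 ± 0.18. miR-296-5p had 3.50, 5.62 and 8.12 CPM in females, against 3.32, 5.09 and 11.9 CPM in males, and differed by 0.05 ± 0.22. None of the 4 member arms tested was called at 6 weeks, and neither was any of the 339 features (0%). By edgeR 25 had an unadjusted p under 0.05, miR-335-5p among them (0.0438), and DESeq2 and limma-voom also called 0. Over 6 to 8 weeks, with 11 female and 17 male libraries and age as a factor, the differences were -0.34 ± 0.18 for miR-335-5p, 0.28 ± 0.22 for miR-335-3p, 0.32 ± 0.15 for miR-298-5p and 0.08 ± 0.19 for miR-296-5p, the smallest adjusted p among them being 0.354. Again no feature of 346 was called by edgeR (0%), with 46 at an unadjusted p under 0.05, miR-298-5p among them (0.0437).

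miR-298-5p was lower in older males. It had 28.7 and 12.9 CPM at 4 weeks, and 17.3, 24.3 and 19.4 CPM at 5 weeks. At 6 weeks it had 4.79, 9.48 and 14.2 CPM (lowest, median, highest of 12). At 7 weeks it had 8.73 CPM, and at 8 weeks 5.06, 8.33, 4.53 and 5.91 CPM. All 4 libraries of 8 weeks lay below all 5 of 4 and 5 weeks. The single male of 16 weeks had 1.66 CPM (7 counts), the lowest of the 39 libraries.

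The slope of miR-298-5p in 22 males of 4 to 8 weeks was -0.57 ± 0.09 log2 per week (edgeR's quasi-likelihood test, adjusted p = 4.96e-05), rank 11 from the lowest of 346 slopes. In males of 6 to 8 weeks only it was -0.38 ± 0.12 (adjusted p = 0.0408). In that fit miR-296-5p had -0.52 ± 0.15 (adjusted p = 0.0353). Of those males, only libraries of 6 weeks reached 5 CPM of miR-296-5p, so it was tested only because it was high in the youngest. Leaving out each of the 22 libraries in turn gave slopes of miR-298-5p from -0.65 to -0.53, all called. Many features moved with age in males: 121 of 346 were called (35%), 74 of them (21.4%) downward. When library set was a term the slope was 0.05 ± 0.24 (adjusted p = 0.979), and no feature of the 346 was called, with 20 at an unadjusted p under 0.05. Among these 22 males, sets 1 and 4 alone held more than 1 age, which leaves little age difference within sets, and within set 1 (4 and 5 weeks) the slope was 0.04 ± 0.37.

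miR-298-5p was also lower in older females. It had 5.00, 12.2 and 15.1 CPM at 6 weeks (lowest, median, highest of 6), and 8.64, 5.40 and 11.2 CPM at 7 weeks. It had 7.27 and 6.71 CPM at 8 weeks, and 6.64, 4.21, 5.49, 5.59 and 4.32 CPM at 9 weeks. Of the younger libraries, 6-week replicate 1 and 7-week replicate 2, in each of which 1 arm took over 40% of counts, lay among the values of 9 weeks. The slope over 16 females of 6 to 9 weeks was -0.27 ± 0.07 log2 per week (edgeR, adjusted p = 0.0366), and 10 of 331 features (3.02%) were called, 9 of them (2.72%) downward; with DESeq2 size factors 2 were called, 1 of them downward. The adjusted p ran from 0.00654 to 0.106 when single libraries were left out, and 9 of 16 such fits lost the call (6-week female replicates 2 to 5 and each of the 5 females of 9 weeks). The call was also lost with a minimum of 1 CPM (adjusted p = 0.0551), with DESeq2 size factors (adjusted p = 0.0664) and without the females of 9 weeks (-0.31 ± 0.15, adjusted p = 0.206). Without a filter (adjusted p = 0.143) and with a replicate block (adjusted p = 0.130) it was lost too. The slope was 0.03 ± 0.21 with library set as a term.

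miR-296-5p, from the neighbouring hairpin, had 9.32 and 8.26 CPM in males of 4 weeks and 2.31, 4.79 and 3.39 CPM at 5 weeks. At 6 weeks it had 3.32, 5.09 and 11.9 CPM (lowest, median, highest of 12), at 7 weeks 3.72 CPM, and at 8 weeks 3.80, 1.42, 2.41 and 4.46 CPM. The levels of 5 and 8 weeks overlapped. Its slope was -0.37 ± 0.11 log2 per week (edgeR, adjusted p = 0.0119). The 8 male libraries that reached 5 CPM were none older than 6 weeks, so it was tested only because it was high in younger mice; with a minimum of 1 CPM, which all 22 reached, the slope was -0.36 ± 0.11 (adjusted p = 0.0186). In the fit with library set it was -0.89 ± 0.31 (unadjusted p = 0.0101, adjusted p = 0.607).

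In females miR-296-5p had 3.50, 5.62 and 8.12 CPM at 6 weeks, and 2.44, 2.21 and 3.85 CPM at 7 weeks. It had 2.66 and 3.91 CPM at 8 weeks, and 2.09, 1.79, 1.08, 1.64 and 1.77 CPM at 9 weeks. Every library of 9 weeks lay below every younger one. The slope was -0.49 ± 0.09 log2 per week (edgeR, adjusted p = 0.0134), rank 6 from the lowest of 331. Here too the 5 libraries that reached 5 CPM were all of 6 weeks, and with the minimum of 1 CPM the slope was -0.49 ± 0.09 (adjusted p = 0.0102). Without 9-week replicate 3 or 4 the adjusted p was 0.0556 and 0.0527, and without each of the 5 libraries at 5 CPM the arm was no longer tested. In females of 6 to 8 weeks only the slope was -0.54 ± 0.20 (adjusted p = 0.113), and with library set as a term it was -0.29 ± 0.28. Across the 39 libraries miR-296-5p and miR-298-5p had a Spearman rho of 0.59.

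miR-483-3p did not reach the minimum of 5 CPM in enough libraries, and was tested at 1 CPM. In males it had 6.30 and 3.33 CPM at 4 weeks and 2.47, 1.15 and 2.91 CPM at 5 weeks. It had 0.860, 2.30 and 3.08 CPM at 6 weeks (lowest, median, highest of 12), 1.39 CPM at 7 weeks and 1.90, 1.83, 1.83 and 2.29 CPM at 8 weeks. The highest value came from a male of 4 weeks with 25 counts. The slope was -0.31 ± 0.09 log2 per week (edgeR, adjusted p = 0.0113), where 78 of 494 features (15.8%) were called downward. It was -0.77 ± 0.27 with library set as a term (unadjusted p = 0.0101, adjusted p = 0.816), and without a filter the adjusted p was 0.0841.

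In females miR-483-3p had 1.46, 2.44 and 3.80 CPM at 6 weeks, 1.78, 0.554 and 2.15 CPM at 7 weeks, 2.05 and 2.24 CPM at 8 weeks and 0.727, 0.421, 1.16, 0.602 and 0.775 CPM at 9 weeks. All libraries of 9 weeks were below all of 6 weeks. The slope was -0.46 ± 0.11 log2 per week (edgeR, adjusted p = 0.0491), where 5 of 470 features (1.06%) were called downward, and 0.12 ± 0.40 with library set as a term. Without a filter the adjusted p was 0.0998. Counts behind these values were 4 to 42 per female library. Of the 16 libraries 11 reached 1 CPM, and of those of 9 weeks only replicate 3 did (1.16 CPM). The arm was thus tested mainly through its younger libraries, where it was higher.

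**Figure D3:**
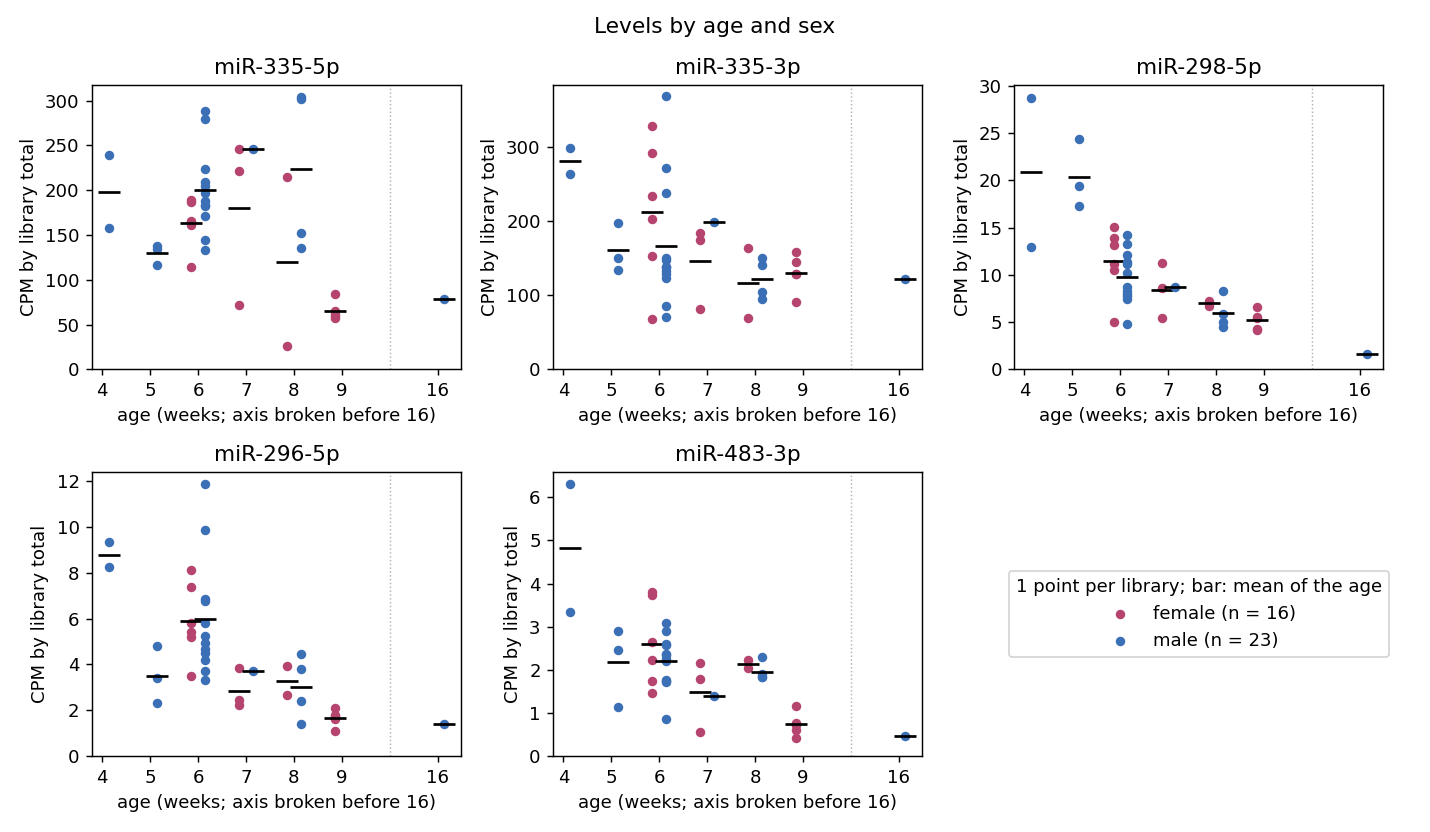
Level of the 5 arms above 0 in every library, in CPM from 0 on a linear axis, by age in weeks (the axis is broken before 16 weeks), with females drawn left of males; each point is a library and black bars are means of an age. miR-298-5p has its highest means in males of 4 and 5 weeks and is lowest in the male of 16 weeks, and miR-335-5p is low in all 5 females of 9 weeks.

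Of the Mir335 arms, the 3p arm was called for age in males and the 5p arm was not. miR-335-3p had 263 and 299 CPM at 4 weeks and 134, 150 and 198 CPM at 5 weeks. It had 70.4, 138 and 369 CPM (lowest, median, highest) at 6 weeks, 199 CPM at 7 weeks and 150, 94.9, 104 and 141 CPM at 8 weeks. The levels of 5 and 8 weeks overlapped, and both libraries of 4 weeks were above all of 8 weeks. The slope was -0.30 ± 0.10 log2 per week (edgeR, adjusted p = 0.0218), and the call was lost without 4-week male replicate 2 (adjusted p = 0.0757) or 8-week male replicate 3 (adjusted p = 0.0563). It was also lost in males of 6 to 8 weeks only (-0.23 ± 0.16, adjusted p = 0.389) and with the 16-week library added (-0.08 ± 0.05, adjusted p = 0.238). The slope was -0.21 ± 0.20 with library set as a term.

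miR-335-5p had 157 and 240 CPM in males of 4 weeks, 135, 117 and 137 CPM at 5 weeks, and 134, 192 and 288 CPM at 6 weeks. It had 246 CPM at 7 weeks and 136, 152, 302 and 304 CPM at 8 weeks. Its slope in males was 0.04 ± 0.07 log2 per week (edgeR, adjusted p = 0.673). In males 3 of the 4 member arms tested were called, all downward, where 21.4% of features were called downward; 1 of the 3, miR-296-5p, was tested only through libraries of 6 weeks or younger. With the minimum of 1 CPM 4 of 5 were called downward, where 15.8% of features were.

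Scaling by total counts alone raised the median slope of all features in males to 0.07, against -0.0032 with TMM factors. Under it miR-298-5p alone was called (-0.50 ± 0.08, adjusted p = 0.000173), while miR-296-5p had an adjusted p of 0.0607 and miR-335-3p one of 0.0837. The share of called features that fell was then 35 of 96, against 74 of 121 with TMM factors.

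In females neither Mir335 arm was called by edgeR. miR-335-5p had 114, 165 and 189 CPM at 6 weeks, 221, 71.5 and 247 CPM at 7 weeks and 215 and 25.7 CPM at 8 weeks. At 9 weeks it had 61.7, 59.2, 84.3, 57.2 and 64.8 CPM, below all libraries of 6 weeks. Its slope was -0.36 ± 0.11 log2 per week with an adjusted p of 0.0544 by edgeR, and 0.00377 by DESeq2 and 0.0307 by limma-voom. Without 8-week female replicate 2, the library of fewest counts, the adjusted p by edgeR was 0.00944, and without 8-week female replicate 1 it was 0.0319. The slope was 0.39 ± 0.20 with library set as a term.

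miR-335-3p had 67.9, 218 and 329 CPM in females of 6 weeks, 184, 81.2 and 175 CPM at 7 weeks and 163 and 69.9 CPM at 8 weeks. At 9 weeks it had 159, 90.6, 145, 129 and 128 CPM, within the range of 6 weeks. Its slope was -0.14 ± 0.09 log2 per week (edgeR, adjusted p = 0.411). In females of 6 to 8 weeks only, the slope of miR-335-5p was -0.17 ± 0.23 (adjusted p = 0.622) and that of miR-335-3p -0.40 ± 0.20 (adjusted p = 0.206), so which arm had the steeper slope depended on the libraries of 9 weeks. In females 2 of the 4 member arms tested were called, both downward (miR-296-5p and miR-298-5p), where 2.72% of features were called downward; miR-296-5p was tested only through its high libraries of 6 weeks. With the minimum of 1 CPM 2 of 5 were called downward, miR-296-5p and miR-483-3p, where 1.06% of features were. There miR-483-3p was tested mainly through libraries younger than 9 weeks, where it was higher. No result in females of 9 weeks can be told apart from library set 6, which held these libraries and no others.

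Some lists of marker miRNAs differed between females of 9 and 6 weeks, or between males of 8 weeks and males of 4 and 5 weeks. The 6 arms of the red blood cell list, all above 0, held 7.76% to 9.89% of counts in females of 9 weeks, against 3.16% to 5.77% in females of 6 weeks. The 6 arms of the white blood cell list, also all above 0, held 0.042% to 0.048% in females of 9 weeks, against 0.056% to 0.117% in females of 6 weeks, and 0.129% to 0.175% in males of 8 weeks, against 0.047% to 0.063% in males of 4 and 5 weeks. In the same males the 2 endothelial arms held 4.53% to 5.17% at 8 weeks, against 2.90% to 4.14% at 4 and 5 weeks, and the 4 smooth muscle arms held 8.74% to 9.46%, against 10.555% to 13.2%. None of these ranges overlapped. The heart muscle list stood at 10.5% to 11.5% in males of 8 weeks, against 7.62% to 9.75% in males of 4 and 5 weeks. Between these ages in males the ranges of the red blood cell, fat tissue and fibroblast lists overlapped. Between females of 9 and 6 weeks those of the heart muscle, endothelial, smooth muscle, fat tissue and fibroblast lists overlapped. No library set held both of the ages compared in either sex. The part of these marker miRNAs in the age results was not tested. In whole tissue, fewer cells of a type and less RNA per cell cannot be told apart.

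**Figure D4:**
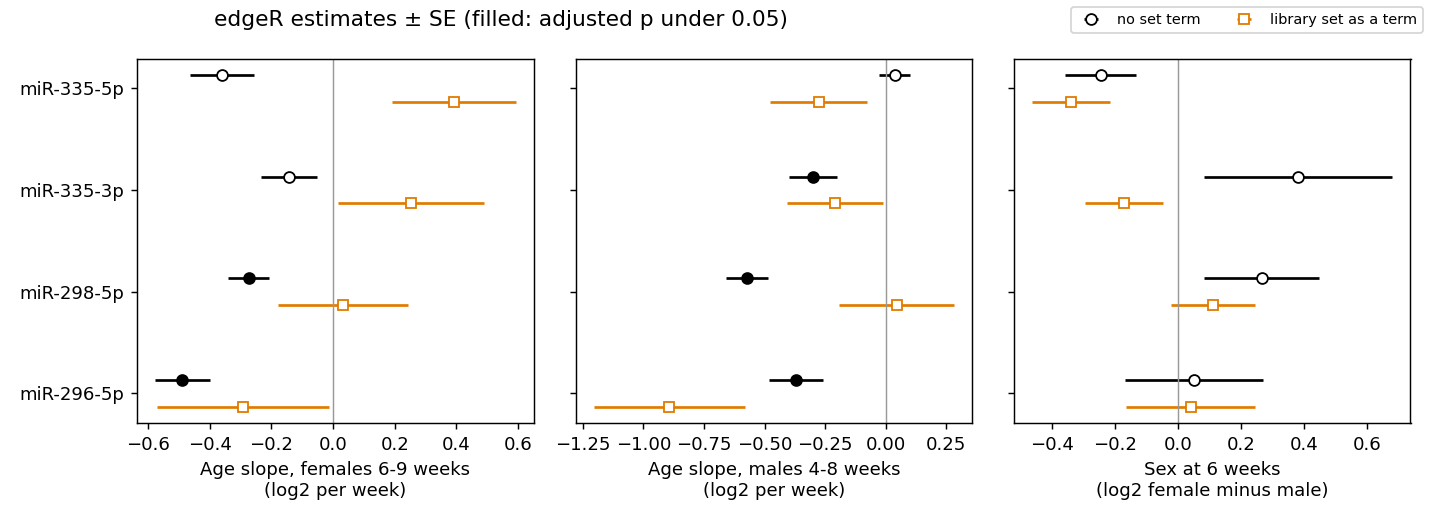
edgeR estimates with their SE (bars) for the 4 arms tested, in log2 per week for the age slopes and log2 female minus male for sex at 6 weeks; circles have no set term, squares have library set as a term, and filled symbols have an adjusted p under 0.05. No square is filled, and miR-298-5p lies near 0 for both age slopes with the set term.

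The difference between the age slopes of the sexes, tested over 6 to 8 weeks where both were sampled, was called for none of the 4 member arms. It was -0.20 ± 0.22 log2 per week (female minus male) for miR-335-5p, -0.14 ± 0.26 for miR-335-3p, 0.10 ± 0.19 for miR-298-5p and -0.01 ± 0.25 for miR-296-5p, with adjusted p from 0.619 to 0.971. Of 346 features, 7 were called (2.02%). The slopes of miR-335-5p in females and in males are therefore not shown to differ.

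Summed over their larger numbers of arms, other groups of imprinted miRNAs stood above or below the members. The 88 sense arms of the Dlk1-Dio3 region on chromosome 12, a maternally expressed miRNA region, summed to 2297 ± 725 CPM (SD, n = 39), against 349.6 ± 126 CPM for the 10 member arms. The most abundant there were Mir127-3p at 1478 ± 632 CPM and Mir411-5p at 284 ± 71.3 CPM. Of the 88 arms, 14 had a mean of 5 CPM or more, against 3 of the 10 member arms, so the sums do not compare single arms. The 106 arms of the cluster in an intron of Sfmbt2, a paternally expressed gene, summed to 19.6 ± 4.67 CPM, led by Mir467d-5p at 4.48 ± 1.47 CPM and Mir467e-5p at 2.25 ± 0.863 CPM. In males, 18 Dlk1-Dio3 arms were tested, of which 9 fell and 1 rose (21.4% of all features fell), with a median slope of -0.13 log2 per week against -0.0032 for all features. In females 14 were tested, of which 2 fell and none rose (2.72% of all features fell), with a median slope of -0.14 against -0.0081 for all features. Under the fit with library set none was called in either sex.

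The 2 arms of Mir335 resembled different miRNAs across the 39 libraries. By Spearman rho of log2 CPM, the arms of other hairpins most like miR-335-3p were Mir501-3p (0.88), Mir99a-5p (0.86) and Mir100-5p (0.82), while those most like miR-335-5p were Mir199b-5p (0.64), Mir126-3p (0.60) and Mir301-3p (0.60). For miR-298-5p they were mmu-mir-300-3p (0.78), a Dlk1-Dio3 miRNA, Mir208b-3p (0.74), which lies in a myosin heavy chain gene read in the young heart, and Mir322-3p (0.71), on the X chromosome. The median rho over the 294 or 295 arms compared was between -0.01 and 0.04. These libraries share library sets and ages, and the correlations are descriptions only.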

How the data were processed

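Small RNA of 39 heart libraries was sequenced by the authors after TruSeq small RNA preparation, per the labels' protocols. The deposited values are whole-number counts per mature miRNA arm, made by the authors and not normalized; the build is GRCm38, per the submitters' processing notes, which also name DESeq and edgeR but not what they were used for. How reads were aligned, and where reads of identical loci were counted, is not given in the sources used here. Male files list 1545 features and female files 1451; a feature not listed was taken as 0.

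Levels are CPM by library total. Tests used edgeR 4.0.16 (quasi-likelihood F-test, TMM factors) in R 4.3.3, on features with 5 CPM or more in at least 5 of the fitted libraries, with Benjamini-Hochberg adjustment over all features tested. Sex was tested at 6 weeks and over 6 to 8 weeks, age as a weekly log2 slope (males, 4 to 8 weeks; females, 6 to 9 weeks), and the difference of slopes over 6 to 8 weeks. The 16-week library was left out of the slope. The share of the miR-335 arms was tested by exact permutation. DESeq2 1.42.0, limma-voom (limma 3.58.1), other scalings and filters, library sets and single libraries left out were alternatives. Library sets came from Ward clustering of the division of counts between 8 pairs of identical loci. The tests were tested on simulated data, where the difference of slopes recovered few of the changes put in and the other tests nearly all. The changes put in were far larger than the sex differences estimated for the members, and no library sets were simulated. Recovery of changes of that smaller size was not tested. Sequences are from RefSeq; all 10 arms matched, and the deposited coordinates of miR-298-3p were 2 bases shorter than those of RefSeq. Named arms were all members, the 3 arms most like each member of 5 CPM or more in median, and the 2 most abundant arms of each comparison list. The members and lists were chosen with earlier results of these data known. Totals ran from 1788245 to 14563754 counts. Intervals and floors cover counting error only. The replicate numbers did not pair the libraries.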

Additional observations from a re-analysis of the deposited data

Results flagged for a closer look

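In 18 checks, each of 1 measure in a group of 4 to 10 libraries, 2 found a library far from the others; about 1 in 20 is expected to by chance. Among the females of 9 weeks, replicate 3 had 84.3 CPM of miR-335-5p, while the other libraries had 57.2 to 64.8 CPM. Among the males of 8 weeks, replicate 4 had 2.29 CPM of miR-483-3p (19 counts), while the others had 1.83 to 1.90 CPM.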

How the results depend on the processing

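Member arms called numbered 3 for the slope in males, with 1 under total counts alone and without a filter, 0 with library set as a term (with either filter) and 0 within set 1; leaving out single libraries gave 2 to 3. For the slope in females they numbered 2, with 1 under DESeq2 size factors and without a filter, and 0 with a replicate block, with library set as a term (with either filter) and in females of 6 to 8 weeks only; leaving out single libraries gave 0 to 3. DESeq2 called 48 features for the slope in females and limma-voom 25, against 10 by edgeR; DESeq2 size factors gave 2. Replicate numbers were checked as pairs: same-numbered libraries at 6 weeks deviated together with r from -0.37 to 0.33, so the numbers do not pair the libraries, and the replicate block called 95 features in males and 0 in females. In males 121 features were called, against 65 with the 16-week library and 38 at 6 to 8 weeks only. In females 10 were called, against 6 at 1 CPM, 1 without a filter, and 16 with sense features only or at 6 to 8 weeks only. For the difference of slopes 7 were called, against 17 by DESeq2, 94 with library set as a term (67 at 1 CPM), 1 by limma-voom, at 1 CPM, without a filter and without the 4 libraries of a dominant arm, and 0 under total counts and with the block. For sex 0 were called, against 2 with the block at 6 weeks and over 6 to 8 weeks, and 1 over 6 to 8 weeks with library set at 1 CPM.

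The 5p share of miR-335 differed between the sexes at 6 weeks by -1.94, -2.49 and -2.22 points within set 3, within set 4 and within both, and by -13.9 to -8.55 points with single libraries left out, 13 of which gave a p above 0.05; the difference between males of 8 weeks and of 4 and 5 weeks ran from 15.8 to 24.7 points, and 7 of 9 such tests gave a p above 0.05 (with fewer libraries the smallest possible p is larger).

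Estimates that changed sign were mostly those with library set as a term, and the cause was not tested. For the slope in males these were miR-298-5p (0.045; 0.030 at 1 CPM; 0.045 within set 1) and miR-335-5p (-0.28; -0.28 at 1 CPM; -0.55 within set 1; -0.069 with the 16-week library; -0.00028 to 0.12 with single libraries left out). For the slope in females they were miR-298-5p (0.032; 0.078 at 1 CPM), miR-335-3p (0.25; 0.30) and miR-335-5p (0.39; 0.44). For sex at 6 weeks miR-335-3p was -0.17 (-0.14 at 1 CPM; -0.23 within set 3; -0.091 within set 4), and miR-296-5p was -0.0051 under total counts, -0.053 within set 3 and -0.053 to 0.17 with single libraries left out. For sex over 6 to 8 weeks miR-335-3p was -0.11 (-0.17 at 1 CPM) and miR-296-5p -0.051 under total counts. For the difference of slopes miR-296-5p was 0.066 by limma-voom, 0.11 with the replicate block, 0.021 with the set term and -0.19 to 0.10 with single libraries left out; miR-298-5p was -0.017 under total counts; miR-335-3p was 0.10 with the set term (0.016 at 1 CPM); and miR-335-5p ran from -0.55 to 0.13 with single libraries left out. Of the other estimates for single arms, 192 under alternative settings and 409 with a library left out kept their direction and their side of the threshold. Depth limits miR-675, miR-298-3p and miR-296-3p, which were tested only without a filter and were called in none of those fits.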
